A study of Mus musculus with 32 samples.

Results

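MIN6 cells, a mouse insulinoma line used as a model of the pancreatic β cell, were kept for 24 hours in medium with 5.5 mM glucose, and the RNA libraries of these cultures fell into a low-depth and a deep set. The members were chosen by library total alone: of the 8 RNA libraries at 5.5 mM, 5 held fewer than 10000000 counts (replicates 2, 4, 6, 7 and 8) and 3 held more (replicates 1, 3 and 5). The RPF (ribosome-protected footprint) libraries of the same 8 cultures were compared alongside them, so that 16 of the 32 libraries of the series were used here. The other 16 came from 8 cultures in 25 mM glucose and serve below only as a range. All cultures were of the wild-type line, were labelled as biological replicates and received cycloheximide before harvest. MIN6 is a single transformed line, so the cultures do not represent separate animals. RNA libraries were made from polyadenylated RNA and RPF libraries from nuclease-protected fragments, in 2 batches. The first batch gave 2 low-depth and 2 deep cultures, and the second 3 and 1. The labels give no difference in handling between the 5 and the 3, which are therefore not groups of the study.

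An input library and a footprint library of one culture report different stages of the same messages. The input library samples polyadenylated transcripts, and each gene's share of it follows the abundance of its mRNA and how well that mRNA is captured. Whether nuclear RNA was included is not stated in the methods of the authors. A footprint library samples the stretch of mRNA covered by a translating ribosome, and each gene's share follows mRNA abundance times ribosome load. In β cells the most abundant messages encode insulin and the cargo of its secretory granules, and these also take a large share of translation.

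Totals just inside and outside the dividing value were 6907849 counts in replicate 6 and 13795978 in replicate 5. The low-depth RNA libraries held 5584130 (replicate 2), 5353564 (replicate 4), 6907849 (replicate 6), 5234568 (replicate 7) and 3014785 counts (replicate 8), and the deep ones 14547155 (replicate 1), 17542565 (replicate 3) and 13795978 (replicate 5). The 25 mM RNA libraries ranged from 16423766 to 33623502 counts. Over both batches together RPF totals overlapped, with 392529 to 2278162 counts in the 5 and 625187 to 7012999 in the 3. In the first batch they divided in the same direction, with 2278162 and 1353741 in the low-depth and 2500414 and 7012999 in the deep cultures. In the second batch they were lower, with 392529 to 626760 in the low-depth cultures and 625187 in the deep one. At the lowest RNA depth, 1 CPM (a gene's counts scaled to a common library total) rests on only a few reads, so the lowest RNA values below are imprecise.

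The low-depth libraries differed from the deep ones in composition as well as in depth. Both mouse insulin genes, Ins1 and Ins2, together took 1.09% of the counts in replicate 2, 0.226% in replicates 4 and 6, 0.159% in replicate 7 and 0.309% in replicate 8. In the deep replicates 1, 3 and 5 they took 8.08%, 6.51% and 4.40%, and in the 25 mM libraries 3.98% to 6.51%. The largest single gene was Ins2 in the 3 deep and the 8 libraries at 25 mM, but Chga in low-depth replicates 2 and 4 and Lars2 in replicates 6, 7 and 8. The 100 largest genes took 32.4% to 40.9% of counts in the 5, against 23.4% to 25.6% in the 3 and 24.0% to 26.0% at 25 mM. Fewer genes were also seen at equal depth: the number expected in a draw of 3014785 counts was 12358 to 12963 in the 5 and 13552 to 13591 in the 3. None of these shares and gene numbers overlapped between the low-depth and the deep RNA libraries.

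The footprint libraries of the same cultures were alike in these measures. Insulin footprints were 10.7% to 14.1% of RPF counts in the cultures of the 5 low-depth RNA libraries (called the low-depth cultures below) and 10.4% to 11.0% in the deep cultures. The 100 largest genes took 33.1% to 35.4% and 32.6% to 34.4% of RPF counts. Thus the 5 cultures whose RNA libraries held the least insulin had insulin footprint shares that overlapped or exceeded those of the 3.

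**Figure D1:**
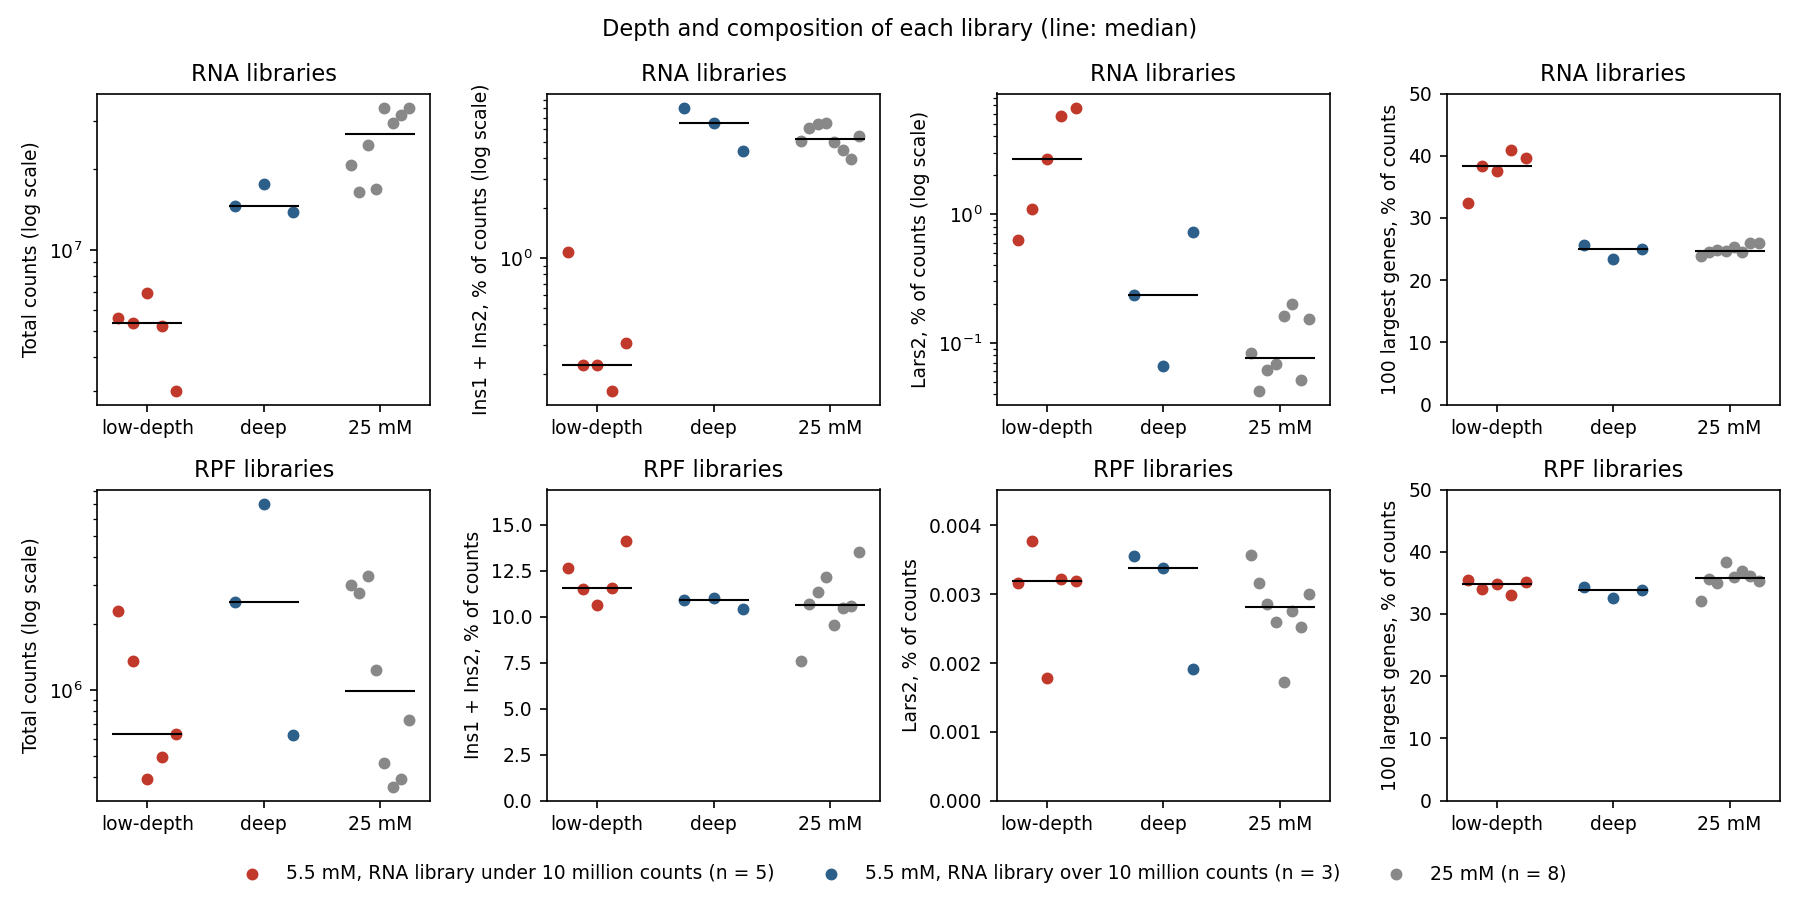
Total counts, the share of Ins1 and Ins2, the share of Lars2 and the share of the 100 largest genes in each library (points; lines are medians), with RNA above and RPFs below, for the 5 low-depth and 3 deep cultures at 5.5 mM and the 8 at 25 mM. The insulin share is 0.159% to 1.09% in the low-depth RNA libraries and 4.40% to 8.08% in the deep ones, while in RPFs it is above 10% in all 8 cultures at 5.5 mM.

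Genes were next compared one by one. RNA levels are given as CPM after TMM scaling over the 8 libraries, and a difference is the mean of log2(CPM + 0.5) in the 5 minus that in the 3. Because the libraries of the comparison also chose its sides, RNA differences are given as a description without a test. Of 11160 genes with a mean of at least 2 CPM, 2529 (22.7%) were higher in every low-depth library than in any deep one, with a mean difference of at least 1 on the log2 scale. Another 3156 (28.3%) were lower in the same sense, which made 50.9% past this rule. With library totals in place of TMM the counts were 1056 higher and 6127 lower. Without the size limit, 55% of genes did not overlap. Within the first batch alone the rule held for 3045 and 4013 genes, with 2 libraries against 2. RPFs were tested by the quasi-likelihood method of edgeR with a batch term, and 19 of 9002 genes (0.211%) were called higher and 4 (0.0444%) lower in the low-depth cultures at an adjusted p under 0.1, together 0.255%. For 8233 genes (91.5%) the 95% interval of the RPF difference lay within 1 on the log2 scale in either direction.

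The counts past the RNA rule and the RPF calls rest on unlike rules, so they are not a like comparison. The spread of the differences themselves was also of another order in RNA than in RPFs. RNA differences here are plain differences of means, and RPF differences come from the edgeR model with its batch term. Over the 8808 genes in both, the SD of the log2 difference was 1.79 in RNA and 0.248 in RPFs, and 63.1% of RNA differences but 0.307% of RPF differences exceeded 1 in size. The differences of the RNA and RPF layers had a Pearson correlation of 0.0499 across these genes, which are not independent and share libraries. Of the 2529 genes higher in RNA, 1967 were measured in RPFs, with a median difference of 2.28 in RNA and 0.018 in RPFs. Among these, 1 was called higher and 1 lower in RPFs, and 1831 (93.1%) had an interval within 1. Of the 3156 lower in RNA, 2650 were measured in RPFs, with medians of -2.003 and -0.029, and here 1 was called higher and 2 lower, while 2462 (92.9%) had an interval within 1.

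**Figure D2:**
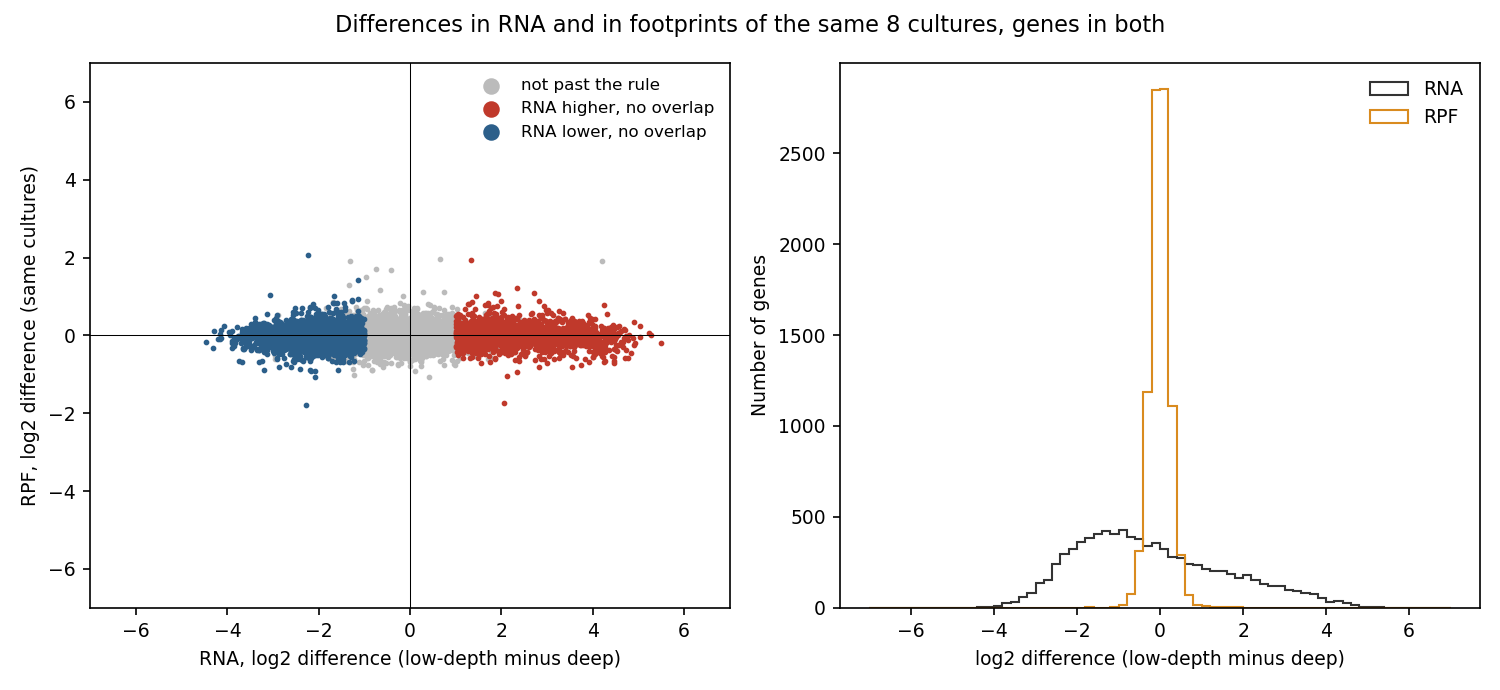
Left, the log2 difference of low-depth minus deep cultures in RNA (x axis) and in RPFs (y axis) for 8808 genes (points), coloured by the RNA rule of no overlap and a difference of at least 1. Right, the number of genes by size of the difference. The cloud is flat: RNA differences have an SD of 1.79 and RPF differences one of 0.248.

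The libraries also differed within each set. Pearson correlations of log2 levels across the 8808 genes, whose libraries share genes and scaling, were 0.896 to 0.971 among the low-depth RNA libraries, 0.798 to 0.888 among the deep ones and 0.502 to 0.820 between the sets. In RPFs the same pairs of cultures gave 0.914 to 0.968, 0.924 to 0.967 and 0.902 to 0.971. Each RNA library was also placed between the sets on 2944 to 3714 genes chosen without it, on a scale where 0 is the deep mean and 1 the low-depth mean. Deep replicate 5 lay at 0.267 and low-depth replicate 2 at 0.776, the nearest to the other set, while deep replicates 1 and 3 lay at -0.103 and -0.054 and low-depth replicates 4, 6, 7 and 8 at 0.888 to 1.10. Against the 25 mM RNA libraries, deep replicate 3 had a median correlation of 0.966, replicates 1 and 5 had 0.805 and 0.752, and the low-depth libraries 0.477 to 0.581.

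Scaling sets the zero of the RNA differences. With TMM the median over all 11160 genes was -0.42, with library totals it was -1.66, and with DESeq2 size factors it moved up by 0.18. Single genes shift by about as much as the median, so that small positive RNA differences below were negative under library totals, with -0.41 for Sdha, -0.45 for Pdx1 and -0.90 for Rps19. Gene lists are therefore described by their relative median, the list median minus that of all genes, which moved less between these scalings than the plain median. Lists are given with counts of members past the same RNA rule, to be read against the 22.7% and 28.3% of all genes. Most members named from a list are those of highest mean CPM over the 8 libraries. As 5 of these are low-depth, a high RNA difference of such a member follows in part from how it was picked.

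Chromatin genes lay high in the low-depth RNA libraries. Of 111 measured chromatin modifiers and remodellers, the machinery that marks histones and moves nucleosomes, 73 were higher and 7 lower, and the median difference was 2.33 (relative median 2.75). With library totals in place of TMM the counts were 53 and 19. These genes took 4.82% to 6.34% of RNA counts in the 5, 1.17% to 2.39% in the 3 and 1.03% to 1.17% at 25 mM. In RPFs 110 were tested, 0 were called in either direction, 108 had intervals within 1 and the median was 0.05.

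Chd4, the ATPase of the NuRD remodelling complex, shows the pattern in single libraries. Its RNA was at 5791, 10778, 9727, 10039.5 and 9838 CPM in replicates 2, 4, 6, 7 and 8 and at 344, 186 and 966 CPM in replicates 1, 3 and 5, a log2 difference of 4.51. All 5 lay above the 3, and replicate 5 was the highest of the deep libraries. Its RPFs were at 741 to 912 CPM in the low-depth and 708 to 962 CPM in the deep cultures, overlapping ranges with a log2 difference of 0.02 (SE 0.11, 95% interval -0.21 to 0.25). Ncor1, a corepressor, and Smarca4, the BRG1 ATPase of SWI/SNF complexes, had RNA differences of 3.73 and 3.49 and RPF differences of -0.09 and 0.10. Tet3, a dioxygenase that oxidises methylated cytosine, had one of the largest RNA differences, with 80.0, 237, 162, 241 and 200.1 CPM in the low-depth and 1.96, 7.37 and 4.45 CPM in the deep libraries (5.23). The RPF difference of Tet3 was 0.05.

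RNA-processing genes were divided. Of 91 splicing factors, 38 were higher and 30 lower in the low-depth RNA libraries, with quartiles of -1.65 and 2.17 around a median of 0.09. Genes known for transcripts that are kept in the nucleus with unspliced, detained introns lay above all genes: 18 of 34 were higher and 8 lower, with a relative median of 1.995. Under library totals the counts of this list were 11 and 12, and those of splicing factors 19 and 42. The summed share of the detained-intron genes was 2.57% to 3.43% of RNA counts in the 5 and 0.71% to 1.43% in the 3. In RPFs 0 of 33 of these detained-intron genes was called and their median was 0.14. For splicing factors 0 of 87 was called, with a median of 0.04.

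Luc7l3, a serine- and arginine-rich factor associated with the U1 particle, was among the highest. Its RNA was at 3323, 6409, 8125, 8823 and 8265 CPM in replicates 2, 4, 6, 7 and 8 and at 197, 80.8 and 767 CPM in replicates 1, 3 and 5 (4.84), with replicate 2 the lowest of the 5 and replicate 5 the highest of the 3. RPFs of Luc7l3 were at 68.9 to 98.8 and 87.5 to 168 CPM, a difference of -0.44 (SE 0.17, 95% interval -0.80 to -0.08) with an adjusted p of 0.629. The splicing regulators Rbm25 and Rbm39 had RNA differences of 4.71 and 3.71 and RPF differences of -0.57 and -0.24. Zrsr2, which recognises the 3′ splice site of minor introns, was at 4.92 in RNA and -0.20 in RPFs. At the other end, Sf3b6, the branch-point subunit of the SF3B complex, was at 2.94, 2.92, 3.92, 3.95 and 2.32 CPM in the 5 and 50.2, 75.4 and 42.2 CPM in the 3 (-3.90 in RNA, -0.20 in RPFs). Nuclear pore and mRNA export genes lay low on the whole, with 4 of 44 higher and 25 lower and a relative median of -1.13. Within them, Thoc2 of the THO complex and the basket protein Tpr were high (4.12 and 2.12), and the export helicase Ddx39b was low (-1.81).

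Deubiquitinases, which remove ubiquitin from proteins, also lay above all genes. Of 53, 20 were higher and 10 lower, and the relative median was 1.11, with 0 of 51 called in RPFs. Under library totals the counts turned to 8 higher and 21 lower. Usp34, Usp36 and Usp8, the members of highest mean CPM over the 8 libraries, had RNA differences of 3.98, 3.91 and 4.28 and RPF differences of 0.05, 0.35 and 0.12.

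Several of the highest genes belonged to none of these groups. Lars2, the mitochondrial leucyl-tRNA synthetase, is encoded in the nucleus, and its RNA stood at 6846, 15685, 42233, 92363 and 93709.6 CPM in low-depth replicates 2, 4, 6, 7 and 8. In deep replicates 1, 3 and 5 it stood at 1244, 341 and 4812 CPM (4.70). The second batch was the higher within each set, and low-depth replicate 2 exceeded deep replicate 5 by less than its gap to any other low-depth library. As an unscaled share of counts the order of these 2 libraries was reversed, at 0.625% and 0.729%, so the sets overlapped. Lars2 RPFs were at 18.3 to 38.3 and 19.4 to 35.9 CPM, a difference of 0.13 (SE 0.20, 95% interval -0.29 to 0.56). Hsp90ab1, a cytosolic HSP90 chaperone, had RNA at 14679, 22746, 30666, 26481 and 14445 CPM in the 5 and 1139, 733 and 2995 CPM in the 3 (3.94), with RPFs at 1378 to 1789 and 1568 to 1665 CPM (0.03). Prrc2c, a component of stress granules, ran from 2958 to 7553 CPM in the 5 and from 71.7 to 443 CPM in the 3 (5.27), against 589 to 693 and 458 to 773 CPM in RPFs (0.02). The initiation factor subunit Eif3a and the microtubule-associated protein Map1b, both among the 10 largest genes of the low-depth libraries, had RNA differences of 4.37 and 4.55 and RPF differences of -0.06 and 0.06. Ptma (prothymosin α) had an RNA difference of 4.54, but too few footprints to test. Genes such as Ptma, Gapdh, Eef1a1 and those of ribosomal proteins have near-identical copies, so their counts are uncertain.

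The 10 highest RNA differences among abundant, non-overlapping genes with the same sign in both batches were those of Gm38394 (5.49), Prrc2c, Tet3, Sept11 (5.03), Traf3ip1 (5.03), Zrsr2, Ppp1r3e (4.91), Aff2 (4.90), Itsn2 (4.88) and Luc7l3. Sept11 is a filament-forming septin, Traf3ip1 a component of intraflagellar transport, Ppp1r3e a glycogen-targeting subunit of protein phosphatase 1, and Itsn2 an endocytic scaffold. RPF differences in this group ran from -0.44 for Luc7l3 to 0.35 for Ppp1r3e, and 0 of the 10 was called.

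**Figure D3:**
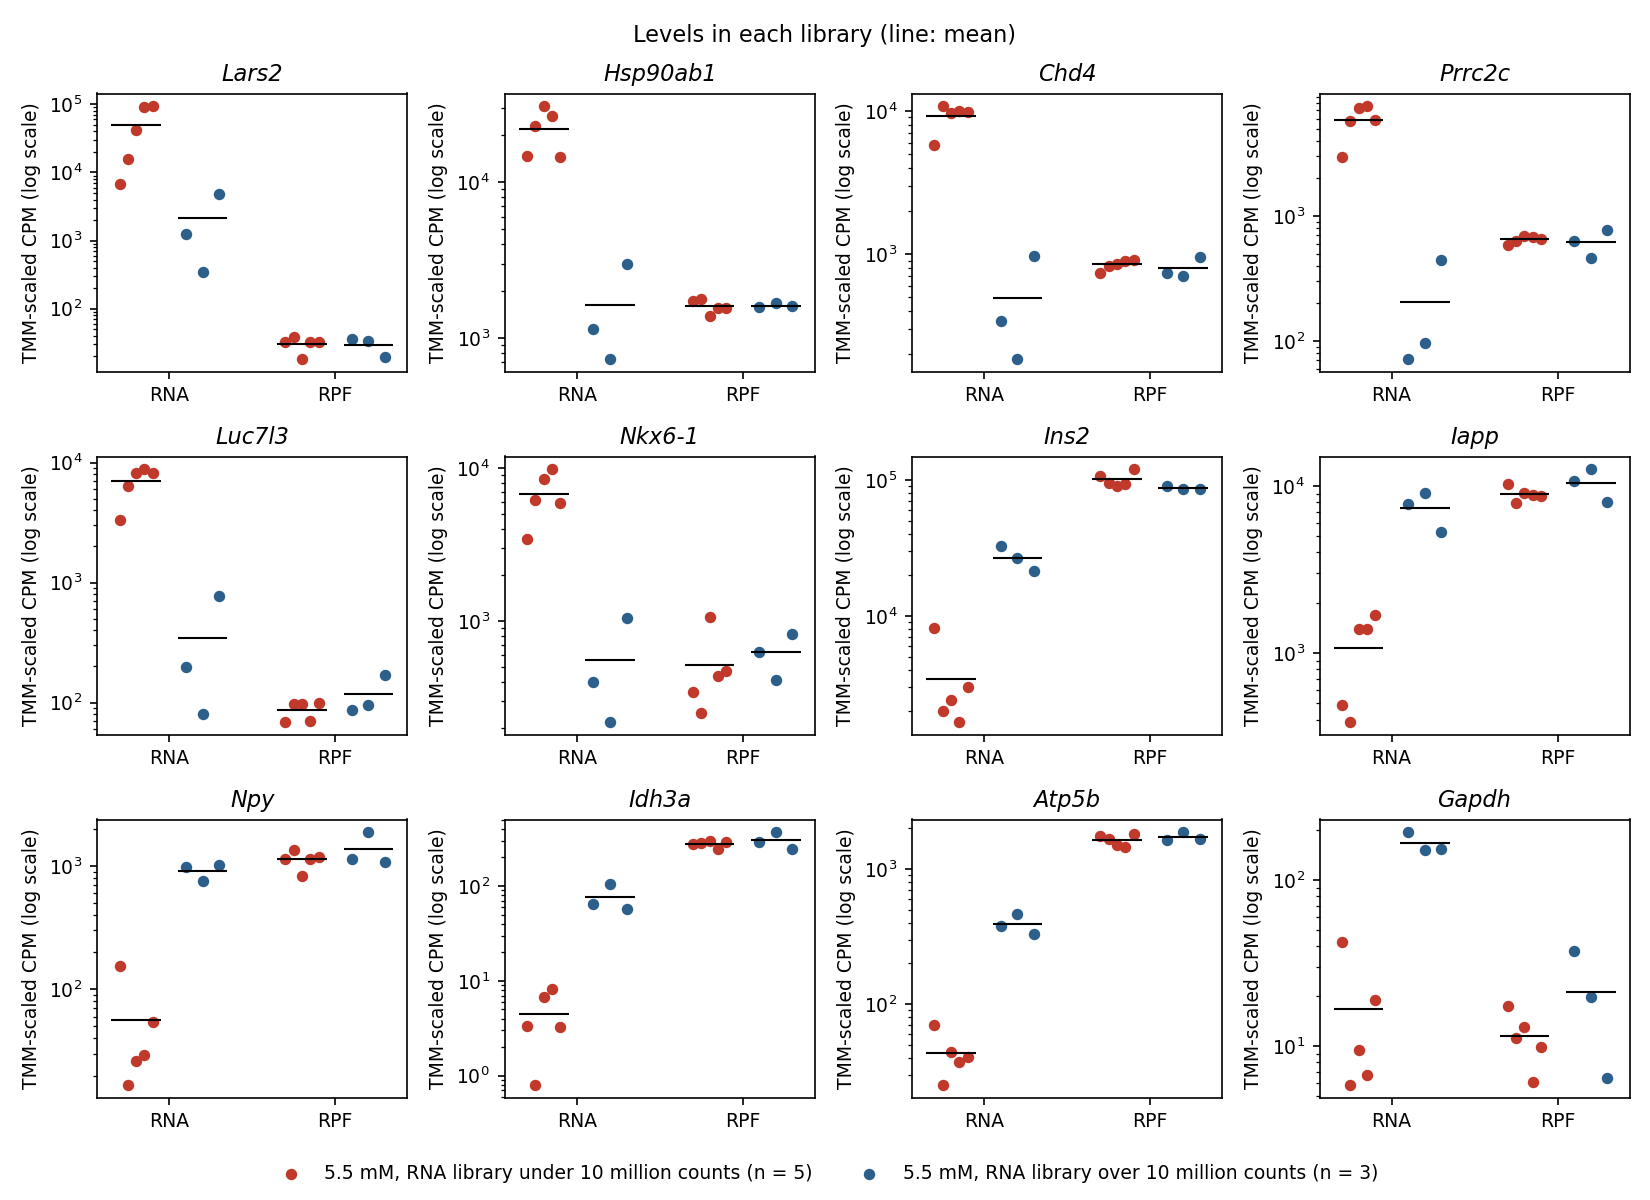
TMM-scaled CPM (log axis) of 12 named genes in each RNA and RPF library of the 5 low-depth and 3 deep cultures at 5.5 mM; lines are means. The 12 were picked from the named genes, and some of these were named for not overlapping in RNA. Separation in RNA therefore follows in part from the choice, and other named genes, such as Pkm and Ogdh, overlapped in RNA. After this scaling the RNA points of the 5 and the 3 are apart in every panel, while the RPF points overlap in all 12 genes but Ins2.

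Insulin and the cargo of its granules lay on both sides in RNA. Of 24 measured genes of this list, 12 were lower and 5 higher in the low-depth libraries, and the relative median was -0.96. Ins2 RNA was at 8255, 2020.4, 2422, 1665 and 3018 CPM in replicates 2, 4, 6, 7 and 8 and at 32835, 26678 and 21552 CPM in replicates 1, 3 and 5 (-3.20), with replicate 2 closest to the deep libraries. Ins2 RPFs were at 106752, 94859.8, 91145, 94356 and 120732 CPM in the low-depth cultures and 90498, 86834 and 86224 CPM in the deep ones, a difference of 0.21 (SE 0.16, 95% interval -0.12 to 0.54) with an adjusted p of 0.861. The lowest of these 5 RPF values lay just above the highest of the 3, the reverse of the order in RNA. Ins1 was similar, with differences of -2.50 in RNA and 0.12 (SE 0.15, 95% interval -0.19 to 0.42) in RPFs. Reads of Ins1 and Ins2 are hard to assign between these close copies. Iapp, the amyloid peptide secreted with insulin, was at 488, 386, 1384, 1384 and 1691 CPM in the 5 and 7839, 9017 and 5327 CPM in the 3 (-2.99), and its RPF difference was -0.16 (SE 0.15, 95% interval -0.48 to 0.16).

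The granins of the same granules lay on the other side. Chga RNA (chromogranin A) was at 29864, 62950, 30116, 37629 and 34625 CPM in the low-depth and 8129.7, 4926 and 7369.5 CPM in the deep libraries (2.49). Its RPFs were at 17542 to 19946 and 17599 to 18082 CPM (0.05). Chromogranin B (Chgb) and secretogranin II (Scg2) had RNA differences of 2.74 and 2.83 and RPF differences of -0.34 and -0.32. In RPFs, 0 of the 24 granule genes was called and all 24 had intervals within 1, so that neither the low insulin nor the high granin RNA had a called counterpart in footprints. Npy, a secreted neuropeptide, had the lowest RNA difference of the abundant genes, at 156, 16.7, 26.1, 29.5 and 54.8 CPM in the 5 and 974, 761 and 1021 CPM in the 3 (-4.47). Npy RPFs were at 831 to 1343 and 1082 to 1882 CPM (-0.18).

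Transcripts of oxidative metabolism were the lowest group. Of 34 TCA cycle and pyruvate entry genes, 25 were lower and 1 higher, and the median was -2.21 (relative median -1.80). Their summed share was 0.061% to 0.110% of RNA counts in the 5, 0.268% to 0.412% in the 3 and 0.380% to 0.453% at 25 mM. Of 80 nuclear genes of the respiratory chain, 50 were lower and 1 higher, with a relative median of -1.56 and shares of 0.183% to 0.516% and 1.24% to 1.45%. RPFs were called for 0 of 33 and 0 of 72 of these genes, with medians of 0.03 and -0.06, and the intervals of 33 and 70 lay within 1.

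Idh3a, the catalytic subunit of NAD-dependent isocitrate dehydrogenase, was at 3.33, 0.797, 6.69, 8.21 and 3.25 CPM in low-depth replicates 2, 4, 6, 7 and 8 and at 64.0, 106 and 57.2 CPM in deep replicates 1, 3 and 5 (-4.16). The sets were apart, with the lowest value in replicate 4. Idh3a RPFs were at 244 to 298 and 245 to 369.7 CPM, a difference of -0.10 (SE 0.13, 95% interval -0.37 to 0.17). Atp5b, the catalytic β subunit of ATP synthase, had RNA at 70.6, 25.3, 44.5, 37.1 and 40.8 CPM in the 5 and 381, 467 and 329.6 CPM in the 3 (-3.22), and an RPF difference of -0.04 (SE 0.12, 95% interval -0.30 to 0.21). The cytochrome oxidase subunits Cox6a1 and Cox7b were at -3.94 and -3.86 in RNA and 0.02 and -0.27 in RPFs. The lists had exceptions: the complex I subunit gene Ndufa10 (2.51) was the respiratory chain member higher in the low-depth libraries, while the TCA cycle genes Sdha and Ogdh, not past the rule, had differences of 0.90 and 0.00.

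Ribosomal protein and secretory pathway genes were also low as groups, and glycolytic genes less so. Of 82 cytosolic ribosomal proteins 40 were lower and 5 higher, and of 82 mitochondrial ones 46 and 7, with relative medians of -0.97 and -0.95. The cytosolic ones took 1.19% to 2.57% of RNA counts in the 5 and 3.06% to 6.29% in the 3. At 25 mM they took 2.07% to 2.62%, a range that overlapped the low-depth libraries and lay below the deep ones. ER-to-Golgi transport genes, the coats and cargo receptors of early secretion, were lower in 38 of 82 and higher in 4 (relative median -0.80). Glycolytic genes were lower in 6 of 17 (35.3%, against 28.3% of all genes) and higher in 2, with a relative median of -0.50. Of their 3 members of highest mean CPM, Pkm (-0.83) and Gpi1 (-0.91) were not past the rule. The remaining one, Gapdh, was at 42.4, 5.85, 9.46, 6.69 and 19.0 CPM in the 5 and 195, 152 and 155 CPM in the 3 (-3.67). Footprints were called for 1 of 38 cytosolic ribosomal proteins and for 0 of 78, 0 of 76 and 0 of 15 genes of the other lists. Exceptions within the lists included Rpsa (1.89), Mrpl45 (3.87) and the coatomer subunit gene Copa (2.53).

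Among proteasome subunits the median and the summed level differed in direction. Of 47, 22 were lower and 10 higher (relative median -0.64), yet their summed share of RNA was 0.707% to 0.852% in the 5 and 0.475% to 0.572% in the 3. The lid and base subunit genes Psmd7, Psmd2 and Psmd1, picked by their mean over the 8 libraries, stood at 4.26, 3.43 and 3.45, whereas the core subunit gene Psmb2 was at -3.79. Of 44 measured in RPFs, 0 was called. The 10 lowest RNA differences of abundant genes, by the rule used for the highest, were those of Npy, Idh3a, Pcbd1 (-3.97), Cox6a1, Sf3b6, Pbk (-3.89), Cox7b, Akr1c12 (-3.83), Psmb2 and Qdpr (-3.78). Pcbd1 and Qdpr encode enzymes that regenerate tetrahydrobiopterin, and Pbk a mitotic kinase. RPFs of this group were called for 0 of the 10.

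**Figure D4:**
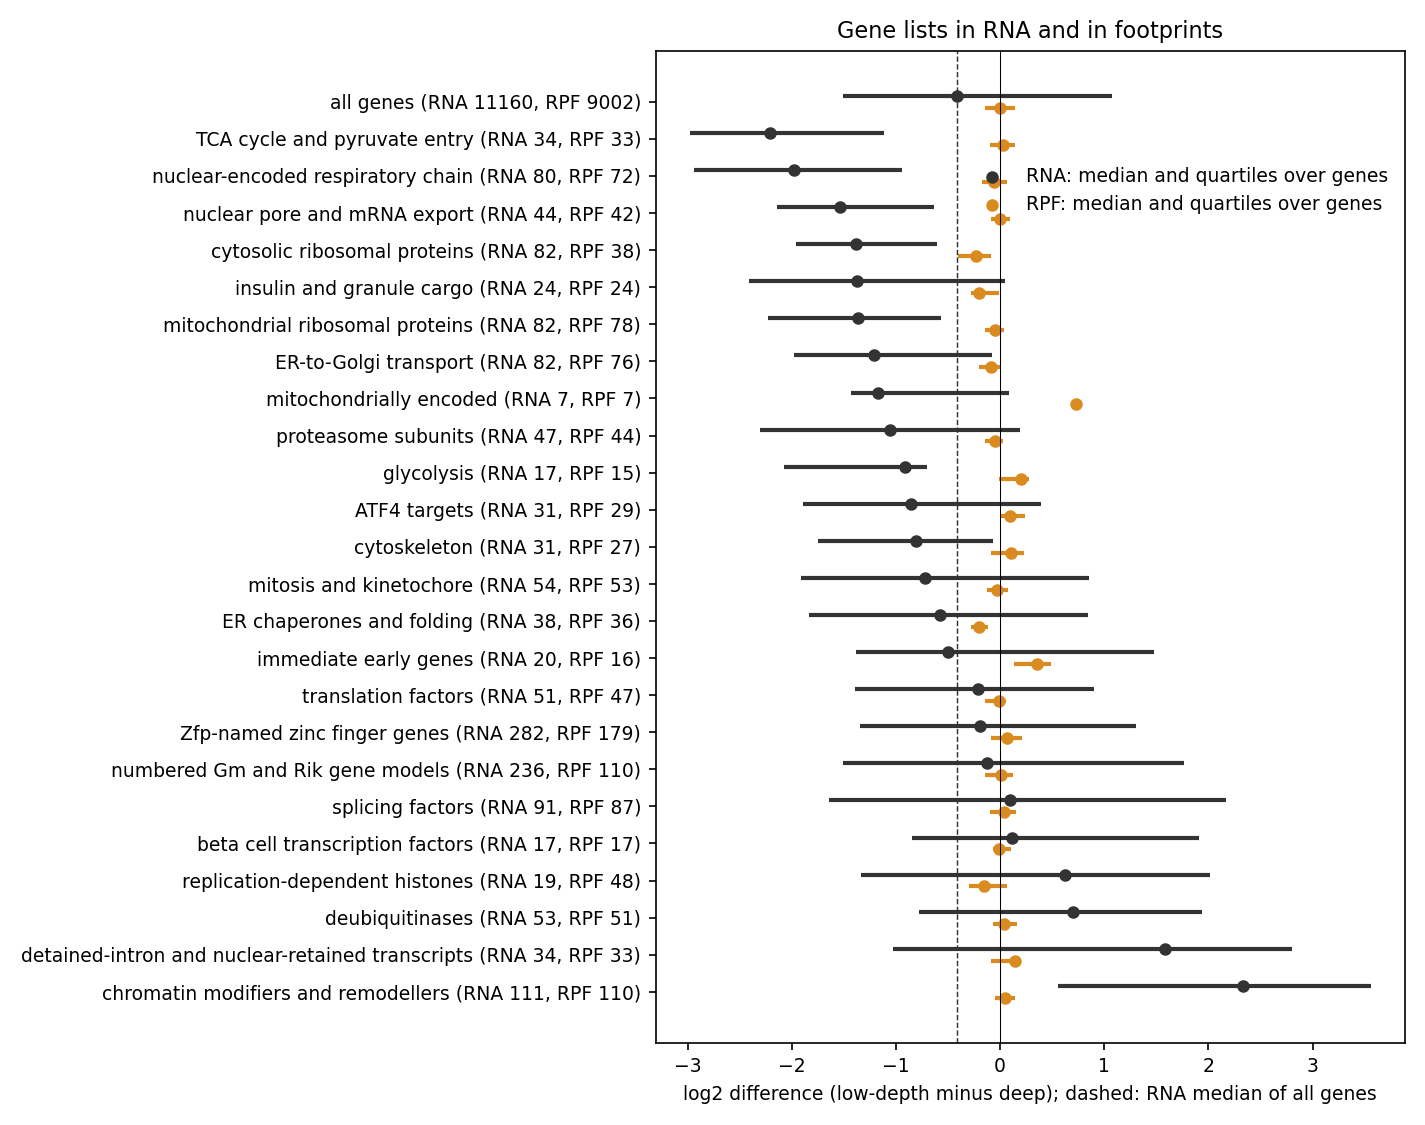
Median (points) and quartiles (bars) over genes of the log2 difference, low-depth minus deep, for each gene list with at least 7 measured genes in RNA (black) and RPFs (orange), with the number of genes measured in each; the list written after the values were seen is not plotted. RNA medians run from -2.21 for the TCA cycle to 2.33 for chromatin genes around -0.42 for all genes, while RPF medians run from -0.23 to 0.36, with mitochondrially encoded genes apart at 0.73.

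A further 8 lists had relative medians of -0.44 to 0.29 in RNA, and none had a member called in RPFs. Counts of higher and lower genes were 12 and 12 of 51 translation factors, 7 and 15 of 38 ER chaperones, 11 and 20 of 54 mitotic genes, 5 and 4 of 20 immediate early genes, 2 and 12 of 31 ATF4 targets and 3 and 10 of 31 cytoskeletal genes. Zinc finger genes named Zfp counted 72 and 63 of 282, and numbered gene models 67 and 55 of 236. Members named from these lists by their mean CPM included the initiation factors Eif5b (4.15) and Eif5 (3.09), the ER chaperones Hsp90b1 (3.37), Calr (2.10) and Canx (4.02) and the DNA topoisomerase Top2a (3.10). Others picked in the same way did not stand high. Tubb5 (-1.37) was lower, and Actb (-0.50), Atf4 (-0.23) and Sars (0.58) were among those not past the rule. Under library totals the counts were 10 and 31 for translation factors, 1 and 10 for immediate early genes, 26 and 150 for Zfp genes and 35 and 113 for gene models. Only 19 of 68 histone genes of the replication-dependent name pattern passed the RNA filter, of which 6 were higher and 5 lower. Their median was 0.62 (relative median 1.04), and under library totals the counts were 3 and 7 and the relative median 1.37. The 3 of highest mean CPM were H1f0 (-0.99), a replication-independent linker histone that the pattern also took in, Hist1h1c (-2.11) and Hist3h2a (0.16), and 0 of 48 was called in RPFs.

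Markers of the β cell were present in every library, but with unequal differences. The transcription factor genes Nkx6-1, Neurod1 and Pax6 had RNA differences of 3.83, 3.94 and 2.06, Pdx1 and Mafa, neither past the rule, 0.86 and -0.24, and the granule zinc transporter gene Slc30a8 -1.42. Of 17 β cell transcription factors 6 were higher and 3 lower in RNA (2 and 8 under library totals), with a relative median of 0.53, and 0 was called in RPFs. Nkx6-1 RPFs were at 341, 251, 1062, 438 and 471 CPM in the low-depth and 628, 413 and 825 CPM in the deep cultures. Their difference was -0.62 (SE 0.23, 95% interval -1.10 to -0.14), opposite in sign to that in RNA, with an edgeR adjusted p of 0.609. Markers of acinar, ductal, stromal and immune cells were nearly absent: 3 of 35 passed the RNA filter (Spp1, Muc1 and Cd68), 12 had no RNA count in any of the 8 libraries, among them the acinar enzymes Cpb1 and Pnlip, the endothelial receptor Kdr and the macrophage marker Adgre1, and the list took 0.001% of counts in the 5 and 0.002% in the 3. Genes of other islet hormones were low, with Gcg at 6.00 to 12.5 CPM in the 5 and 33.5 to 82.7 CPM in the 3 and Sst at 0 to 0.304 and 0.651 to 2.49 CPM. Their part in the differences was not tested. In bulk libraries fewer cells of a type and less RNA per cell cannot be told apart.

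Longer genes stood higher in the low-depth RNA libraries. With the 11104 genes that matched a RefSeq gene (99.5%) divided by genomic span into 5 groups of equal number, the median RNA difference was -0.92 in the shortest group and then -0.75, -0.59, -0.17 and 0.47. The share of genes higher in the 5 was 14.8%, 17.6%, 20.6%, 25.0% and 35.1% over these groups, and that of genes lower was 35.7%, 34.5%, 32.4%, 24.3% and 14.7%. RPF medians of the same groups ran only from -0.016 to 0.017. In 5 such groups by level of footprints, the RNA medians lay between -0.60 and -0.32.

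Footprint medians of several lists were off 0, with both quartiles on the same side. These included immediate early genes (0.36), cytosolic ribosomal proteins (-0.23), ER chaperones (-0.20) and insulin and granule cargo (-0.20). Among lists with at least 7 genes measured in RNA, the largest footprint shift was that of mitochondrially encoded genes, at a median of 0.73. Footprints of these genes, which are read by the ribosomes of the mitochondrion, took 0.417%, 0.588%, 0.566%, 0.559% and 0.682% of RPF counts in low-depth cultures 2, 4, 6, 7 and 8 and 0.364%, 0.271% and 0.345% in deep cultures 1, 3 and 5. The 2 sets did not overlap (0.563% ± 0.0951, SD, n = 5, and 0.326% ± 0.0491, n = 3; ratio 1.72). An exact two-sided permutation test over the cultures gave p = 0.0179, the smallest its 56 splits allow, for a measure that was chosen after the values were seen. With splits within each batch only and batch as a term, the exact permutation p was 0.0417, the smallest its 24 splits allow. When any 1 of replicates 4, 6, 7 or 8 was left out, the exact permutation p was 0.0571, and without any other replicate it was 0.0286 or 0.0476. The order of the sets was the same within each batch. At 25 mM the share was 0.193% to 0.466% in 7 libraries and 0.710% in replicate 8, a range that spans both sets.

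All 7 measured genes of this list had RPF differences above 0, from 0.59 for mt-Nd1 to 0.87 for mt-Co1, and 4 were called by edgeR: mt-Co1 (adjusted p = 0.0280), mt-Nd5 (0.79, adjusted p = 0.0280), mt-Cytb (0.63, adjusted p = 0.0832) and mt-Nd4 (0.73, adjusted p = 0.0871). RPFs of mt-Co1, a core subunit of cytochrome oxidase, were at 998, 1530, 1660.4, 1387 and 1947 CPM in low-depth cultures 2, 4, 6, 7 and 8 and 830, 648 and 833 CPM in deep cultures 1, 3 and 5. Here too the sets were apart, with culture 2 the lowest of the 5. RNA of mt-Co1 did not follow: it was at 48.6, 28.4, 3691, 10480.1 and 153 CPM in the 5 and 560.1, 3766 and 907 CPM in the 3, so that low-depth replicate 6 lay within the deep range, replicate 7 above it and replicates 2, 4 and 8 below it. In RNA 1 of the 7, mt-Nd5, was past the rule (1.70).

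**Figure D5:**
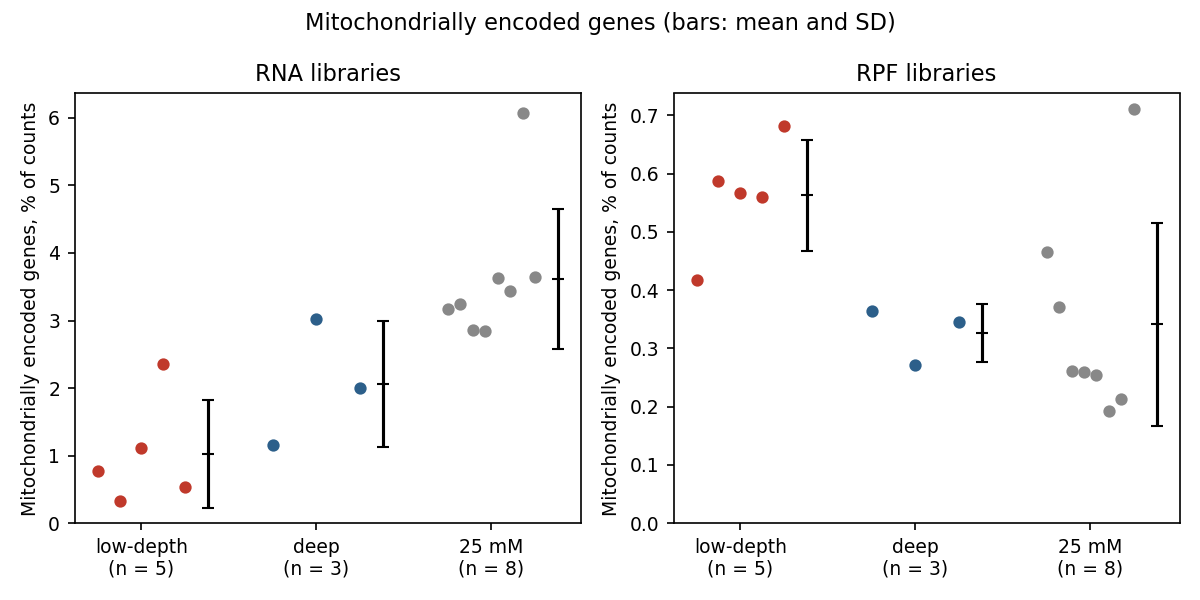
Share of counts on mitochondrially encoded genes in each RNA (left) and RPF (right) library (points), with mean and SD, for the 5 low-depth and 3 deep cultures at 5.5 mM and the 8 at 25 mM. In RPFs the low-depth cultures lie at 0.417% to 0.682% and the deep ones at 0.271% to 0.364%, whereas in RNA the sets overlap.

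The other footprint calls were few and scattered. Of all 19 genes called higher in RPFs, the 4 mitochondrially encoded ones included, 11 had less than 2 CPM of RNA on average. In 8 of the 19 the 5 cultures did not overlap the 3, and mt-Co1, mt-Nd5 and mt-Cytb were among these 8. Shank3, a postsynaptic scaffold, was at 50.9, 22.5, 18.3, 18.2 and 16.5 CPM in low-depth cultures and 5.24, 3.38 and 8.10 CPM in deep ones (log2 difference 2.94, adjusted p = 0.00243). Per2, a repressor of the circadian clock, was at 87.8, 238, 109.8, 107 and 107 CPM in the 5 and 51.6, 33.1 and 55.1 CPM in the 3 (1.69, adjusted p = 0.0164), and its RNA difference of -0.42 equalled the median of all genes. Both genes were apart between the sets. The Wnt receptor gene Fzd10, with 0 RNA counts in all 8 libraries, and Tmem198b were called with overlapping values (3.12 and 3.93), and Tmem198b turned to -1.15 in the second batch alone.

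The 4 genes called lower in RPFs were Gc, C1qa, Rps19 and Ube2d3. Gc, the vitamin D-binding protein, was at 84.6, 85.5, 154, 96.9 and 97.2 CPM in low-depth and 175, 169 and 179.8 CPM in deep cultures (log2 difference -0.89, adjusted p = 0.0164), and it was also lower in RNA (-3.20). C1qa, a complement subunit, likewise stood lower in both layers (-0.91 in RPFs and -2.18 in RNA). Rps19 of the small ribosomal subunit (-1.08) and the ubiquitin-conjugating enzyme gene Ube2d3 (-1.04) were at 0.42 and 2.12 in RNA. These calls lean on the batch term: without it 1 gene was called higher and 0 lower by edgeR, with 613 genes at an unadjusted p under 0.05 against 608 with it. With single libraries left out, 7 (without replicate 6) to 44 (without replicate 5) genes were called higher and 2 (without replicate 7 or 8) to 11 (without replicate 5) lower. Higher calls numbered 22 without replicate 1, 10 without replicate 2, 9 without replicate 3 or 4, 8 without replicate 7 and 12 without replicate 8, and lower calls numbered 9 without replicate 1.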

How the data were processed

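The deposited tables hold whole-number counts per gene, 1 table for RNA and 1 for RPFs. By the methods of the authors, trimmed reads were aligned to the mouse genome (Ensembl release 102) with the XPRESSyourself pipeline, ribosomal RNA alignments and PCR duplicates were removed, and each protein-coding gene was counted on its longest transcript, over either its exons or a shortened coding sequence. Which of these served which library type, and the tool versions, are not given in the sources used here. Removal of duplicates can limit the counts of the most abundant genes, and more so at high depth; its part in these values was not tested. Symbols were found for 21826 of 21945 identifiers.

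The members and gene lists were chosen with earlier results of these data known. RNA differences are on the log2(CPM + 0.5) scale after TMM scaling, for genes with a mean of at least 2 CPM over the 8 libraries, and carry no test. RPFs were tested with edgeR 4.0.16 in R 4.3.3 (TMM, filterByExpr, quasi-likelihood, batch as covariate) on all genes, with Benjamini-Hochberg adjustment and calls under 0.1. P-values for RPFs judge the difference of the sets against the spread between cultures left after the batch term, moderated across genes. Genes were named if they were Ins1, Ins2 or Lars2, the 10 highest or lowest RNA differences described, the 3 most abundant members of a list, the 5 smallest p per direction among RPF calls, the 10 largest genes of either set, or cell type markers. A few genes that met this rule were left out of the text. Alternatives were DESeq2 1.42.0 size factors and Wald test, library totals, other filters and pseudocounts, no batch term, each batch alone and each replicate left out. Genomic spans came from RefSeq on GRCm38.p6 and were used in place of protein lengths, which were not used here. Scripts were tested on simulated data.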

Additional observations from a re-analysis of the deposited data

Results flagged for a closer look

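Among the 5 low-depth cultures, 62 sets of values were examined for a single library far from the other 4, and 9 were found; chance alone gives about 1 in 20. In 6 of these replicate 2 was the high library in RNA. Insulin took 1.09% of its RNA counts, against 0.159% to 0.309% in the other 4 low-depth libraries. Ins1 was at 3681 CPM (others 863 to 1310) and Ins2 at 8255 CPM (others 1665 to 3018). Npy was at 156 CPM (others 16.7 to 54.8), Cox6a1 at 21.6 CPM (others 3.46 to 7.15) and Pbk at 10.6 CPM (others 1.38 to 2.79). All of these values still lay below those of every deep library.

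The remaining 3 were single values. Pcbd1 RNA was at 3.71 CPM in replicate 8 (others 9.04 to 10.04). Traf3ip1 RPFs were at 24.2 CPM in replicate 7 (others 13.2 to 15.7), and Psmb2 RPFs at 131 CPM in replicate 6 (others 181 to 198), the culture with the fewest RPF counts.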

How the results depend on the processing

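No paired analysis was possible because the low-depth and deep libraries are different replicate numbers of the same glucose group and so share none. RNA counts of 2529 higher and 3156 lower genes became 1056 and 6127 with library totals, with a shift of -1.25 (log2) in the all-gene median; under the other settings they were within 1.5 times. With single replicates left out they were 2508 to 2821 and 3172 to 3719, and without low-depth replicate 8 and deep replicate 5 together 2893 and 3884. The relative order of the lists rests on the list median minus that of all genes; as plain medians, with library totals deubiquitinases turned to -0.57, β cell transcription factors to -1.18, splicing factors to -1.22, histones to -0.29 and the 3 measured markers of other cells to -0.41, and immediate early genes to 0.67 at a mean of 10 CPM or more. The 19 higher and 4 lower RPF calls became 12 higher with library totals, 104 and 33 without a filter on low counts, 1 and 0 without a batch term, 10 and 10 in the second batch alone and, for lower calls, 2 in the first batch alone. With single replicates left out they were 7 to 44 and 2 to 11, and DESeq2's Wald test gave 13 and 5. Only 5 and 2 of these Wald calls, and 4 and 0 of the second-batch calls, were among the 19 and 4. Tmem198b turned to -1.15 in the second batch alone. The ratio of mitochondrially encoded footprint shares was 1.59 to 1.84 with single replicates left out. The cause of these shifts was not tested. The 3 deep libraries, with 1 of the second batch, and low RPF totals of 392529 upward limit all footprint comparisons.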

Other observations

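A list of 46 genes was written after the RNA values had been seen, from abundant high genes and others of the same kind. It holds proteins known from general knowledge for long stretches rich in glutamate, aspartate or lysine, such as prothymosin α (Ptma), nucleolin (Ncl), HSP90 chaperones, granins, calreticulin (Calr) and the microtubule-associated Map1b; amino acid composition was not computed here. Because it was written from these values, its RNA counts are no evidence of its own. In RNA 43 of the 46 were past the rule as higher in the low-depth libraries and 1, the nucleolar chaperone Npm1, was lower (-1.80). The list took 16.2% to 20.7% of RNA counts in the 5 low-depth libraries, 3.25% to 6.73% in the 3 deep ones and 3.18% to 4.18% at 25 mM. In RPFs of the same cultures, 0 of 41 was called and the median difference was -0.15, with 35 intervals within 1 on the log2 scale.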
